A study of Mus musculus with 27 samples.

Results

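The genes described here encode the proteins of the mitochondrial ribosome, followed in mouse bone marrow-derived macrophages that differed in TRAP1, in IL-4 polarization and in exposure to tumor cell medium. They were taken as the row names of the count table that read Mrpl or Mrps, a number and at most 1 further letter, with a mean of at least 1 CPM (counts scaled to the size of the library) over the 24 libraries labelled batch 1. This rule kept 76 of 78 matching rows, out of 50559 rows in all. Of the 76 genes, 50 encode proteins of the large subunit, Mrps30 and Mrps18a among them in spite of their names, and 25 encode proteins of the small subunit. The remaining gene, Mrps36, bears the name but encodes an adaptor of the oxoglutarate dehydrogenase complex (also called Kgd4) and is no ribosomal subunit.

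Macrophages were grown from bone marrow of C57BL/6 mice labelled female and aged 3 to 4 months, either wild type (WT, labelled wt) or knock-out for the mitochondrial chaperone TRAP1 (TRAP1 KO, labelled KO), in medium carrying the macrophage growth factor of L929 fibroblasts. They were left unpolarized (Mφ, labelled M0) or made M2-like (labelled M2) with 10 ng/ml IL-4 for 24 h, and then kept for 48 h either in control medium (labelled DMEM) or in medium conditioned by malignant peripheral nerve sheath tumor cells (MPNST-CM, labelled CM). The 8 groups held 3 batch 1 libraries each, and 3 further libraries were labelled batch 2. The TRAP1 deletion was present in every cell of the KO animals and not in macrophages alone, and the labels do not say whether libraries of a group came from separate mice, so p-values measure only the spread between these samples.

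The mitochondrial ribosome translates the few proteins that are still encoded by mitochondrial DNA, all of them subunits of the oxidative phosphorylation complexes. Its RNAs are made inside the organelle, but every protein subunit is encoded in the nucleus, translated in the cytosol and imported. Some subunits have bacterial counterparts, and others were acquired by mitochondria during evolution. The large subunit joins amino acids and holds the exit tunnel, which faces the inner membrane, while the small subunit binds the mRNA and decodes it. Macrophages rely on oxidative phosphorylation to differing degrees, and IL-4 is known for raising it.

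Libraries held 7037684 to 9089792 counts in batch 1 and 9997776 to 11152362 in batch 2. A member drew between 23 and 1691 counts per library. Trap1 stood at 10.9 to 20.5 CPM in WT libraries and at 0 counts in every KO library except 1 of batch 2, which held 2 counts. Macrophage markers were high throughout batch 1 (7 genes, 7800 to 12000 CPM summed), whereas T cell, B cell and erythroid markers together stayed under 1 CPM per list. The sums reached 18.5 CPM for neutrophil, 12.1 for dendritic cell, 8.27 for Schwann or MPNST, 2.52 for fibroblast and 1.81 CPM for mast cell markers. In the batch 2 library labelled M2 MPNST-CM KO the neutrophil markers S100a8, S100a9, Ngp, Camp, Elane and Ly6g stood at 165, 206, 44.8, 14.8, 1.27 and 0.212 CPM. The X-linked RNA Xist, which is made in female cells, stood at 266 to 525 CPM in WT libraries, at no more than 1.14 CPM in batch 1 KO libraries and at 313 and 401 CPM in the batch 2 KO libraries. The batch 1 KO values go against the label female, and genotype and this difference cannot be told apart in batch 1; none of the members (0 of 76) lies on the X chromosome. Of the batch 2 libraries, that labelled M2 MPNST-CM KO was closest by rank correlation to M2 control WT (0.983, against 0.949 with its own group) and that labelled M2 control KO was closest to Mφ MPNST-CM KO (0.97 against 0.914). In the M2 control KO library the IL-4 response genes Retnla and Chil3 stood at 23.8 and 1.8 CPM. Their batch 1 values in that group were 1760 to 2050 and 255 to 309 CPM. Arg1 stood at 2.28 (4.11 to 5.56 in batch 1) and Mrc1 at 659 CPM (511 to 598). In the M2 MPNST-CM KO library Mrc1 stood at 710 CPM (3280 to 3700 in batch 1) and Arg1 at 49.4 (218 to 235). Retnla, at 4550 (213 to 232), and Chil3, at 508 (109 to 123), were higher. Within batch 1, replicate 1 stood apart from the other replicates in all 4 Mφ groups and in M2 WT in MPNST-CM. Its chi-square per degree of freedom with them was 16 to 37.4, against 2.11 to 3.42 between them, and the deviations of these 5 libraries from their group means correlated at 0.377 to 0.52 over genes (10 pairs). Their summed member level was the lowest of its group in each case. Apart meant that the lowest chi-square with the other replicates was over 4 times that between them. Replicate 2 of M2 KO in control medium had 10.8 and 13.1, against 4.26 between the others. Its ratio was 2.54, and it was not counted as apart. Counts without these 5 libraries, a choice made after seeing the data, are given where they differ.

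Comparisons were made on batch 1 in a single edgeR quasi-likelihood fit with Benjamini-Hochberg adjustment over all 13614 genes tested, and the counts with all 27 libraries are given beside them. A gene is called here where the adjusted p was under 0.05, and fold changes are given as log2 with their standard error (SE). Since many genes were called in most comparisons, the share of all genes called stands beside the main counts of members. Some counts of the alternatives, those of the closing sections among them, are given without it.

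The levels and ranges of the members are given without those of all genes tested, which were not computed. Mean levels ran from 5.33 CPM for Mrps27 to 150.7 CPM for Mrpl33, with a median of 38.7 CPM, and Mrpl18 (117 CPM) and Mrps15 (103 CPM) came next to Mrpl33. Just inside the limit of 1 CPM lay Mrps27, Mrps10 (7.62 CPM) and Mrps33 (8.38 CPM), and just outside it lay Mrpl24 (0.419 CPM) and Mrps18b (0.197 CPM). Reads came from the 3′ end of transcripts, so these levels were not scaled by transcript length. How well they rank the genes by transcript abundance was not tested. The range of the 8 group means of a gene had a median of 0.524 on the log2 scale.

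Summed over the 76 genes, the level was highest in Mφ WT exposed to MPNST-CM, at 3578, 3700 and 3763 CPM, against 2881, 3113 and 3089 CPM in control medium. In Mφ KO the sums were 2855, 3055 and 3067 CPM in control medium and 3068, 3267 and 3310 CPM in MPNST-CM. In M2 WT they were 3292, 3243 and 3253 CPM in control medium and 3404, 3522 and 3569 CPM in MPNST-CM. In M2 KO they were 2896, 3068 and 2865 CPM in control medium and 3122, 3115 and 3053 CPM in MPNST-CM. In Mφ WT and M2 WT every library in MPNST-CM lay above every library in control medium. In M2 WT much of this rise in the sum was that of Mrps6 (group means of 55.2 and 140 CPM) and Mrpl18 (109 and 144 CPM). There the fit had 34 members above 0 and 42 below, so the sum does not stand for a rise of the members in general. In Mφ KO they met almost without a gap, and in M2 KO they overlapped. Of the 76 genes, 37 had their highest group mean in Mφ WT in MPNST-CM, and 23 had their lowest in M2 KO in control medium. Such counts were not made over all genes tested, so they are not read as a trait of the members. As a share of all reads, without any scaling, the members took 0.333% ± 0.015 (SD, n = 3) in Mφ WT in control medium, 0.404% ± 0.014 in Mφ WT in MPNST-CM and 0.265% ± 0.011 in M2 KO in control medium.

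**Figure D1:**
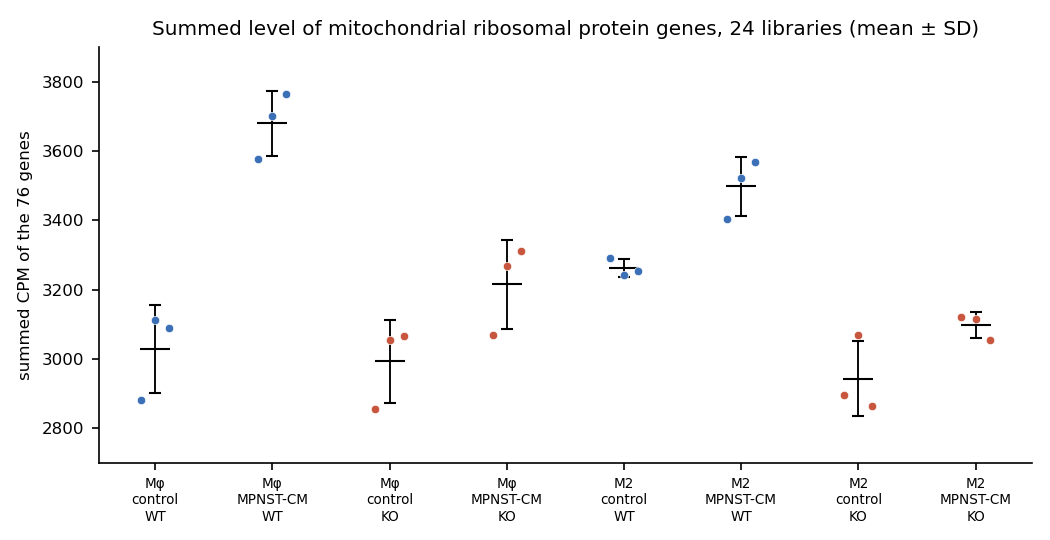
Summed CPM of the 76 genes (vertical axis, which does not start at 0) in each of the 24 batch 1 libraries by group, WT in blue and KO in red, with the mean and SD of each group. The 3 libraries of Mφ WT in MPNST-CM lie between 3578 and 3763 CPM, above all other libraries.

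MPNST-CM raised members of both subunits in Mφ WT. Of the 76 genes 27 rose and 0 fell, while 11.3% of all genes tested were higher and 9.96% lower. The members' median log2 fold change was 0.24, against -0.0151 over all genes tested, and 66 of 76 were above 0. By role, 11 of 29 large-subunit proteins with a bacterial counterpart rose, 9 of 21 mitochondria-specific ones, 4 of 16 small-subunit proteins with a bacterial counterpart and 3 of 9 mitochondria-specific ones. Over 27 libraries 17 rose and 0 fell, against 6.98% of all genes called in either direction. Without replicate 1 of the control medium Mφ WT 17 rose and 0 fell, against 17.5% of all genes called, and without the 5 libraries that stood apart 21 rose and 0 fell, against 21.9%. Of the 10 cell division genes Ccnb1, Mcm2, Mcm5 and Rrm2 rose as well (1400 to 1640 CPM summed over the list in control medium and 1690 to 1990 CPM in MPNST-CM), and their part in the members' values was not tested.

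The largest rise belonged to Mrps6, a small-subunit protein of the platform. It stood at 40.9, 44.8 and 44.3 CPM in control medium and at 142, 110 and 105 CPM in MPNST-CM, a log2 change of 1.46 ± 0.14 (SE, adjusted p = 1.65e-08). All MPNST-CM libraries lay above all control libraries, by a fold of 2.75 in the fit. Mrpl12, the stalk protein that recruits translation factors to the large subunit, stood at 50.5, 44.96 and 50.3 CPM in control medium and at 82.5, 77.2 and 79.6 CPM in MPNST-CM (log2 0.72 ± 0.096, adjusted p = 3.74e-06). Mrpl10, which anchors the stalk, stood at a log2 value of 0.03 ± 0.12 and was not called (adjusted p = 0.917). Mrpl17, a large-subunit protein close to the exit tunnel, stood at 41.2, 47.5 and 43.5 CPM in control medium and at 67.4, 61.4 and 67.3 CPM in MPNST-CM (log2 0.57 ± 0.089, adjusted p = 3.31e-05). Mrpl41, a mitochondria-specific protein of the large subunit, stood at 27.6, 26.8 and 24.1 CPM in control medium and at 39.6, 41.2 and 37.4 CPM in MPNST-CM (log2 0.59 ± 0.12, adjusted p = 0.00072). The groups of Mrps6, Mrpl12, Mrpl17 and Mrpl41 did not overlap.

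Mrpl19 went from 16.8, 17.9 and 19.3 CPM to 24.9, 28.6 and 24.2 CPM (log2 0.52 ± 0.13, adjusted p = 0.00574). Among the genes of the decoding and mRNA path, Mrps7 rose by 0.51 ± 0.097 (adjusted p = 0.000388) and Mrps5, at the mRNA entry, by 0.46 ± 0.13 (adjusted p = 0.00894), whereas Mrps12, a protein of the decoding center, stood at a log2 value of 0.27 ± 0.11 and was not called (adjusted p = 0.0738). The Mrps5 call was lost without replicate 1 of Mφ WT in MPNST-CM (log2 0.37, adjusted p = 0.0523). Not called either were Mrps30 (0.08 ± 0.11, adjusted p = 0.675), Mrpl58, which has kept the activity of a peptidyl-tRNA hydrolase (0.16 ± 0.15, adjusted p = 0.514), Mrps18c (0.01 ± 0.095, adjusted p = 0.958), Mrpl36 (0.17 ± 0.12, adjusted p = 0.351) and Mrpl44, which carries a ribonuclease III fold (-0.01 ± 0.16, adjusted p = 0.969).

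Promoters of genes high in this comparison are shown because NRF1, the ETS factor GABP and YY1 are known regulators of genes for mitochondrial proteins, and because these promoters differ in whether they hold the letters those factors bind. RefSeq promoters (GRCm38.p6, not the build of the count table) were matched by symbol for 67 of the 76 members, and 250 bases before to 50 bases after the annotated start were searched on both strands. Capitals mark a match. The 250 bases before the start are printed, 5′ to 3′ on the gene's strand, for Mrps6 (chr16:92058086-92058335, plus strand), Mrpl12 (chr11:120484387-120484636, plus strand) and Mrpl17 (chr7:105811088-105811337, minus strand). Mrpl17 is printed as the only one with a match among the 4 largest rises with an entry, while Mrpl41, whose rise was larger, held none and is not printed.
Mrps6: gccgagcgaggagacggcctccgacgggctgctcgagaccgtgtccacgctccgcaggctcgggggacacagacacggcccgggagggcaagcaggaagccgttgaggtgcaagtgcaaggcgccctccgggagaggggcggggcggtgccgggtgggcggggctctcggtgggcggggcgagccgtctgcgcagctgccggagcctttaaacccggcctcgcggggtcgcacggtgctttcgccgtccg
Mrpl12: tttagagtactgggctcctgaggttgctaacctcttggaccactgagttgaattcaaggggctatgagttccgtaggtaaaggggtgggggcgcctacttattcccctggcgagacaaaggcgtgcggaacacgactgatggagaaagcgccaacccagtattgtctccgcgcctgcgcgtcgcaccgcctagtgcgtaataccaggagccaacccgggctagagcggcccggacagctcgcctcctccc
Mrpl17: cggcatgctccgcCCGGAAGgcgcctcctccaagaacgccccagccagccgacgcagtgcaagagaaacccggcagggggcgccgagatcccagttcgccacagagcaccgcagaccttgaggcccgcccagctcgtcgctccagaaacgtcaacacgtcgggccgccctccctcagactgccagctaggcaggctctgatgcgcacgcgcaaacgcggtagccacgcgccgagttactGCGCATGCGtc

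Mrpl17 held the letters of NRF1 (GCGCATGCG) and of an ETS site (CCGGAAG), while Mrps6 and Mrpl12 held none of the 5 motifs searched. Over the 67 members, the ETS letters were present in 25 promoters (37.3%), against 20.2% of the 9906 promoters of genes tested. The YY1 letters (AAGATGGCG) were present in 8 (11.9%, against 3.61%) and the NRF1 letters in 6 (8.96%, against 4.12%). An E-box (CACGTG) was present in 5 (7.46%, against 11.8%) and a CRE (TGACGTCA) in 2 (2.99%, against 3.51%). The motif spelled for NRF1 shares no full match with the others, and a promoter can hold several. Among the 23 matched members that rose in Mφ WT, 11 held at least 1 motif, and among the 44 that did not rise 28 did. These are matches of letters in a window and say nothing of binding.

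In Mφ KO, MPNST-CM raised 10 members and lowered 2, with 14.8% of all genes tested higher and 18.1% lower. The members' median was 0.118, against -0.0418 over all genes tested. In the fit of 27 libraries 10 members were called, against 19.3% of all genes, and without replicate 3 of Mφ KO in MPNST-CM 5 rose and 1 fell, against 27.6% of all genes. Mrpl33, a small protein of the large subunit, stood at 119, 129 and 136 CPM in control medium and at 168, 199 and 200 CPM in MPNST-CM (log2 0.57 ± 0.088, adjusted p = 8.49e-06). Mrpl57, a mitochondria-specific protein, went from 47.4, 52.1 and 45.6 CPM to 61.4, 65.9 and 67.1 CPM (log2 0.43 ± 0.091, adjusted p = 0.000498). Neither gene's groups overlapped. Mrps10, of the head of the small subunit, rose by 0.61 ± 0.20 (adjusted p = 0.0207), a call lost in 4 of the 6 fits that left out a library (replicates 1 and 3 of the control medium and 2 and 3 of the MPNST-CM libraries, adjusted p up to 0.0881).

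The members that fell in Mφ KO were Mrpl3, near the peptidyl transferase center, and Mrpl11, at the stalk base. Mrpl3 went from 55.3, 49.6 and 55.8 CPM to 39.4, 40.7 and 41.9 CPM (log2 -0.39 ± 0.098, adjusted p = 0.00251). Mrpl11 went from 31.2, 34.3 and 34.4 CPM to 23.3, 28.9 and 23.5 CPM (log2 -0.39 ± 0.12, adjusted p = 0.00973), a call lost without replicate 1 (adjusted p = 0.0549) or replicate 3 (adjusted p = 0.0532) of the MPNST-CM libraries. Mrps6 stood at 62.8, 69.6 and 75.9 CPM in control medium and at 57.6, 60.8 and 54.2 CPM in MPNST-CM and was not called (log2 -0.26 ± 0.14, adjusted p = 0.15). In the same comparison all 10 cell division genes listed fell (median log2 -1.94). Their summed level was 631 to 718 CPM in Mφ KO in control medium and 175 to 196 CPM in MPNST-CM, and their part in the members' values was not tested.

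In M2 WT, MPNST-CM raised 3 members and lowered 6, fewer than the 11.2% of all genes higher and 13.3% lower, and the median was -0.0174 against -0.0288. With total counts alone as the scale, which shifted the median of all genes to 0.122, 16 members rose and 0 fell, with a member median of 0.134 and 25.5% of all genes called. Without the 5 libraries that stood apart, of which replicate 1 in MPNST-CM is in this comparison, 12 rose and 1 fell (median 0.0672, 29% of all genes called), and blocking on replicate number 5 rose and 2 fell (median 0.0353, 23.2%). The direction of the members in M2 WT thus turned with the libraries and the fit used. In batch 1 the control medium libraries of M2 WT were replicates 2, 3 and 4, so replicate 1 was present on the MPNST-CM side only. The part of this imbalance was not tested. Over 27 libraries 2 were called, against 7.39% of all genes. Mrps6 rose again, from 61.3, 54.7 and 49.6 CPM to 120, 152 and 147 CPM (log2 1.27 ± 0.14, adjusted p = 5.86e-08), with no overlap. Mrpl18, a protein of the central protuberance, rose by 0.34 ± 0.087 (adjusted p = 0.00482) and Mrpl28 by 0.31 ± 0.089 (adjusted p = 0.00994). In the same comparison 8 of 10 cell division genes rose (647 to 680 CPM summed in control medium and 1060 to 1170 CPM in MPNST-CM), and their part in the members' values was not tested.

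Of the members that fell in M2 WT, Mrps21 fell most. It went from 17.3, 16.2 and 18.2 CPM to 10.0, 11.9 and 14.2 CPM (log2 -0.58 ± 0.18, adjusted p = 0.0162). Mrps35 (-0.37 ± 0.11, adjusted p = 0.018), Mrpl52 (-0.37 ± 0.12, adjusted p = 0.0248), Mrpl44 (-0.44 ± 0.16, adjusted p = 0.0422), Mrpl11 (-0.31 ± 0.11, adjusted p = 0.0497) and Mrps26 (-0.34 ± 0.11, adjusted p = 0.0293) were the others. Without replicate 1 in MPNST-CM 7 members rose and 0 fell, against 20.8% of all genes called, so that all 6 lower calls were lost (for Mrps21, adjusted p = 0.159). The Mrpl11 call was lost in each of the 6 fits that left out a library. Without replicate 2 of the control medium libraries 5 members rose and 0 fell, against 19% of all genes, and without replicate 3 or replicate 4 of them 4 rose and 1 fell, against 18.6% and 19%.

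In M2 KO, MPNST-CM raised 16 members and lowered 4, with 16.7% of all genes higher and 20.2% lower, and the median was 0.112 against -0.0116. Over 27 libraries, which add the pair of M2 KO libraries that stood closest to other groups, only Mrpl28 was called, against 6.02% of all genes. Total counts alone gave 31 higher and 0 lower, with the median of all genes at 0.12 and 39.4% of them called. Without replicate 2 of the MPNST-CM libraries 10 rose and 2 fell, against 31% of all genes. All 10 cell division genes fell (681 to 703 CPM summed in control medium and 259 to 274 CPM in MPNST-CM), and their part in the members' values was not tested. Mrps10 went from 6.14, 3.96 and 5.91 CPM to 9.28, 9.40 and 9.18 CPM (log2 0.81 ± 0.20, adjusted p = 0.00209). Mrpl30 went from 61.3, 61.3 and 55.8 CPM to 85.5, 76.3 and 74.8 CPM (log2 0.42 ± 0.099, adjusted p = 0.00141). Neither gene's groups overlapped.

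Mrpl51 rose in M2 KO by 0.40 ± 0.12 (adjusted p = 0.00853), Mrpl22, which lines the exit tunnel, by 0.45 ± 0.15 (adjusted p = 0.017), Mrps34 by 0.40 ± 0.12 (adjusted p = 0.00977), Mrps18c by 0.35 ± 0.097 (adjusted p = 0.00544) and Mrpl33 by 0.29 ± 0.088 (adjusted p = 0.0102). The Mrps34 call was lost without replicate 2 in control medium (adjusted p = 0.0509) and that of Mrpl22 without replicate 1 in control medium (0.079) or replicate 2 (0.0539) or 3 (0.0624) in MPNST-CM. The 4 members that fell were Mrps6 (log2 -0.37 ± 0.14, adjusted p = 0.0323), Mrps35 (-0.35 ± 0.12, adjusted p = 0.0192), Mrps26 (-0.30 ± 0.11, adjusted p = 0.0439) and Mrps15 (-0.25 ± 0.082, adjusted p = 0.0199), all of the small subunit. The groups overlapped for Mrps6, at 76.3, 101 and 67.9 CPM in control medium and 62.5, 68.9 and 56.6 CPM in MPNST-CM.

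**Figure D2:**
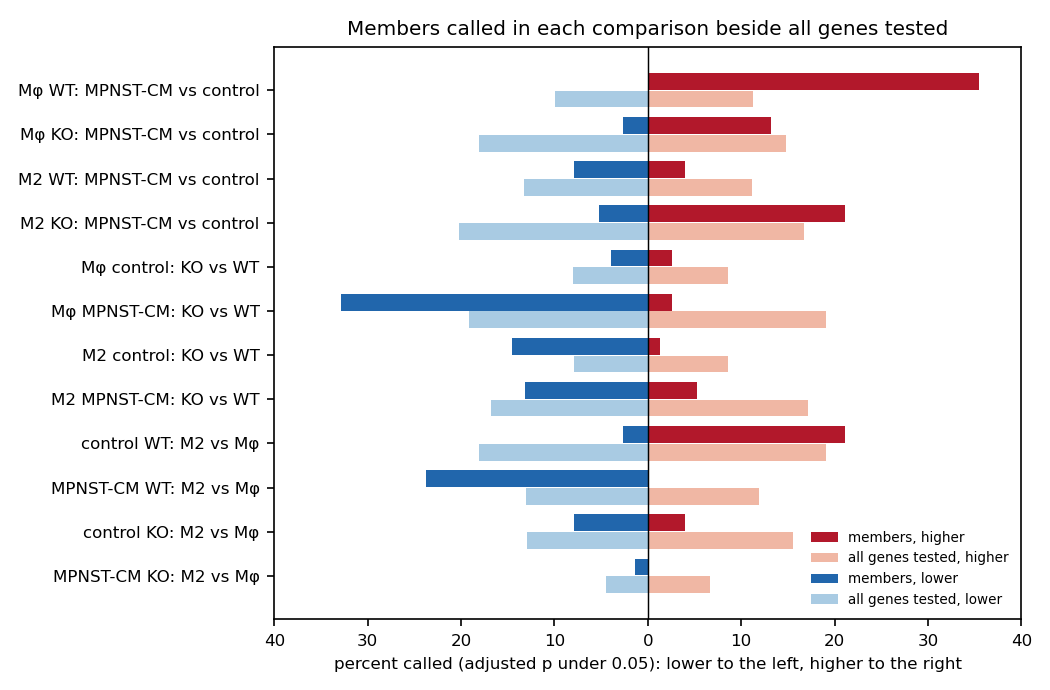
Percent of the 76 members called higher (dark red) or lower (dark blue) in each of 12 comparisons, beside the percent of all genes tested (pale bars). In Mφ WT exposed to MPNST-CM 27 members were higher and 0 lower, and in Mφ in MPNST-CM 25 were lower in KO than in WT.

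Between genotypes, the members lower in KO took a larger share than that of all genes in Mφ in MPNST-CM and in M2 in control medium. In Mφ in control medium 2 members were higher in KO and 3 lower, against 8.64% and 7.97% of all genes, and the medians were -0.0118 and 0.0271. In the fit of 27 libraries 2 were called, against 6.22% of all genes. Total counts alone gave 1 higher and 10 lower, against 17% of all genes called, and without the 5 libraries that stood apart 3 were higher and 7 lower, against 18.7%. In this comparison 9 of 10 cell division genes were lower in KO (1400 to 1640 CPM summed in WT and 631 to 718 CPM in KO), and their part in the members' values was not tested. Mrps6 was higher in KO (40.9, 44.8 and 44.3 CPM in WT against 62.8, 69.6 and 75.9 CPM, log2 0.68 ± 0.14, adjusted p = 0.000747), and so was Mrpl9 (0.52 ± 0.17, adjusted p = 0.0344). Mrps25, a mitochondria-specific protein of the small subunit, was lower (-0.39 ± 0.10, adjusted p = 0.00693), as were Mrpl49 (-0.39 ± 0.12, adjusted p = 0.0245) and Mrpl33 (-0.27 ± 0.088, adjusted p = 0.0359). Of these 5 calls that of Mrps6 was kept whichever library was left out. The counts were 1 higher and 2 lower without replicate 1 of the KO, 2 and 1 without its replicate 3, and 1 and 0 without replicate 3 of the WT (15.2%, 12.6% and 13.2% of all genes called).

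In Mφ in MPNST-CM, 25 members were lower in KO and 2 were higher, against 19.2% of all genes lower and 19.1% higher. The median was -0.161, against 0.0432 over all genes tested. With all 27 libraries 20 were called, against 22.6% of all genes, 19 of them lower. Of the 25, 8 were large-subunit proteins with a bacterial counterpart, 8 mitochondria-specific proteins of the large subunit, 5 small-subunit proteins with a counterpart and 3 mitochondria-specific ones of the small subunit, and Mrps36 was the last. Mrpl18 stood at 157, 171 and 168 CPM in WT and at 92.6, 95.7 and 98.6 CPM in KO (log2 -0.78 ± 0.087, adjusted p = 5.02e-08). Mrpl12 stood at 82.5, 77.2 and 79.6 CPM in WT and at 47.1, 47.8 and 52.8 CPM in KO (log2 -0.69 ± 0.096, adjusted p = 2.01e-06). Mrps6 stood at 142, 110 and 105 CPM in WT and at 57.6, 60.8 and 54.2 CPM in KO (log2 -1.04 ± 0.14, adjusted p = 7.51e-07). None of the 3 genes had overlapping groups.

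Mrps27, which carries pentatricopeptide repeats that bind RNA, went from 7.78, 8.62 and 7.93 CPM in WT to 2.99, 3.33 and 5.52 CPM in KO (log2 -1.03 ± 0.20, adjusted p = 0.000197), and Mrps36 was lower by a log2 of -0.64 ± 0.18 (adjusted p = 0.00696). Mrpl11 was lower (-0.61 ± 0.11, adjusted p = 0.000108), and so was Mrps5 (-0.36 ± 0.12, adjusted p = 0.0227), whose call was lost without replicate 1 of the WT (0.111) or replicate 2 (0.0814) or 3 (0.117) of the KO. The 2 members that were higher in KO were Mrpl43 (0.39 ± 0.10, adjusted p = 0.00319) and Mrpl32 (0.46 ± 0.17, adjusted p = 0.0291), whose product needs proteolytic maturation before it joins the ribosome. In this comparison all 10 cell division genes were lower in KO, by a median log2 of -3.74. Their summed level was 1690 to 1990 CPM in WT and 175 to 196 CPM in KO, and their part in the members' difference was not tested.

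In M2 in control medium, 11 members were lower in KO and 1 was higher, against 7.87% of all genes lower and 8.56% higher, and the medians were -0.169 and 0.0168. In the fit of 27 libraries 7 were called, against 8.29% of all genes, all of them lower. Mrps25 stood at 62.7, 54.1 and 48.7 CPM in WT and at 36.7, 39.9 and 42.1 CPM in KO (log2 -0.47 ± 0.10, adjusted p = 0.0015). Mrpl42 went from 83.3, 85.6 and 93.8 CPM to 60.8, 67.1 and 61.4 CPM (log2 -0.47 ± 0.11, adjusted p = 0.00294), and Mrpl52 from 80.1, 74.9 and 69.2 CPM to 49.9, 57.7 and 52.5 CPM (log2 -0.48 ± 0.12, adjusted p = 0.00681). All WT libraries lay above all KO libraries for these 3 genes.

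Mrpl12 was lower in the same comparison by a log2 of -0.39 ± 0.097 (adjusted p = 0.00534), a call lost without replicate 2 of the WT (0.0552). Mrpl22 was lower by -0.50 ± 0.15 (adjusted p = 0.0195), lost without replicate 1 of the KO (0.0866) or replicate 2 (0.0623) or 3 (0.0521) of the WT. Mrps6 was higher, with 61.3, 54.7 and 49.6 CPM in WT and 76.3, 101 and 67.9 CPM in KO (log2 0.58 ± 0.14, adjusted p = 0.00417), and this call was lost without replicate 2 of the KO (log2 0.37, adjusted p = 0.0793). Here 0 of 10 cell division genes were called (647 to 680 CPM summed in WT and 681 to 703 CPM in KO).

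In M2 in MPNST-CM, 10 members were lower in KO and 4 were higher, against 16.8% of all genes lower and 17.2% higher, and the medians were -0.0569 and 0.053. With all 27 libraries 6 were called, against 12.2% of all genes. Mrps6 stood at 120, 152 and 147 CPM in WT and at 62.5, 68.9 and 56.6 CPM in KO (log2 -1.07 ± 0.14, adjusted p = 5.3e-07). Mrpl18 stood at 147, 137 and 147 CPM in WT and at 89.95, 99.3 and 93.5 CPM in KO (log2 -0.53 ± 0.087, adjusted p = 2.77e-05). Mrps25 (-0.52 ± 0.099, adjusted p = 0.000162), Mrpl40 (-0.53 ± 0.13, adjusted p = 0.00237) and Mrpl12 (-0.44 ± 0.097, adjusted p = 0.000707) were lower as well. Higher in KO was Mrpl1, the protein of the L1 stalk through which tRNA leaves the ribosome, at 15, 13.7 and 17.5 CPM in WT and 25.2, 23.2 and 19.1 CPM in KO (log2 0.63 ± 0.15, adjusted p = 0.00141). The groups of these genes did not overlap. All 10 cell division genes were lower in KO (median log2 -2.33, 1060 to 1170 CPM summed in WT and 259 to 274 CPM in KO), and their part in the members' values was not tested.

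**Figure D3:**
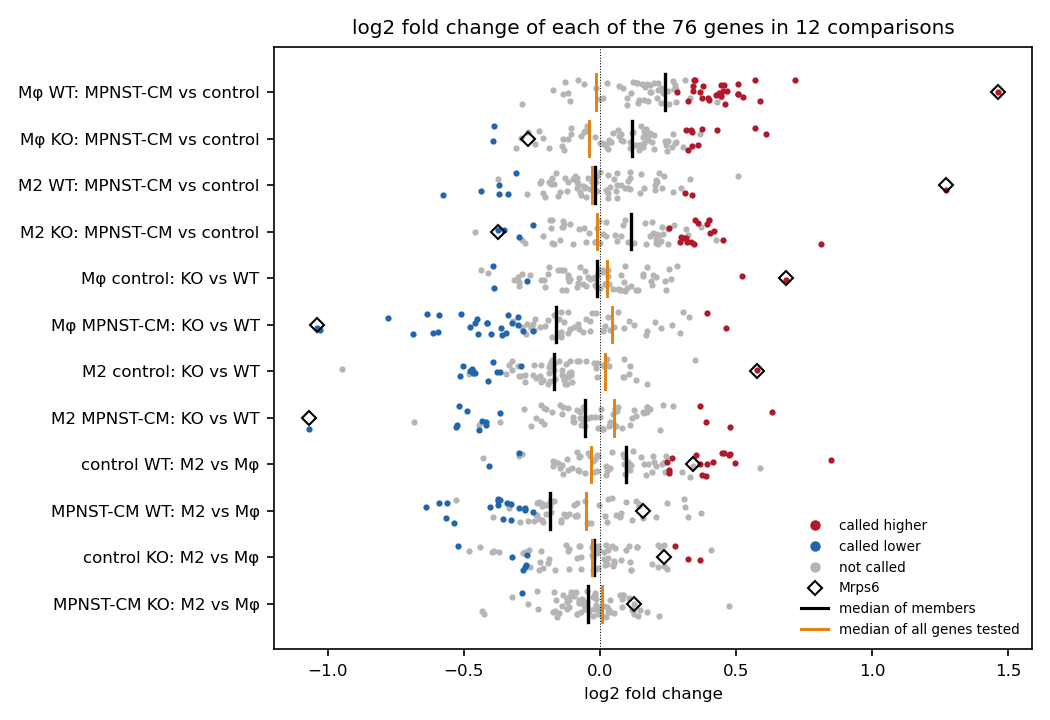
log2 fold change (horizontal axis) of each of the 76 genes in 12 comparisons, with called genes in red or blue, Mrps6 as an open diamond, and the medians of the members (black) and of all genes tested (orange). Mrps6 lies above all other members for medium in WT, at 1.46 and 1.27, and below them for genotype in MPNST-CM, at -1.04 in Mφ, where Mrps27 is next at -1.03, and at -1.07 in M2.

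The difference between genotypes in the change with MPNST-CM was tested as an interaction, signed so that a positive value is a larger log2 change in KO. In Mφ 7 members had a smaller change in KO and 1 a larger one, against 11.5% and 8.17% of all genes tested. In the fit of 27 libraries 2 were called, against 4.76% of all genes. All 10 cell division genes had a negative interaction in both Mφ and M2, and their part was not tested. Mrps6 had an interaction of -1.72 ± 0.19 (adjusted p = 1.65e-07), Mrpl45, which tethers the ribosome to the inner membrane, -0.61 ± 0.15 (adjusted p = 0.0037), Mrpl18 -0.56 ± 0.12 (adjusted p = 0.00129) and Mrpl12 -0.56 ± 0.14 (adjusted p = 0.00386). Mrpl45 rose in WT from 62.4, 59.0 and 51.4 CPM to 86.1, 63.7 and 72.6 CPM and stood in KO at 74.2, 65.1 and 70.2 CPM in control medium and 63.8, 56.8 and 56.1 CPM in MPNST-CM. Mrpl33 was the member with a larger change in KO (0.47 ± 0.12, adjusted p = 0.00702). These 5 calls were kept whichever library was left out. That of Mrpl11 (-0.53 ± 0.16, adjusted p = 0.0191) was lost in 4 of 12 such fits, without replicate 1 of the WT or replicate 1 or 3 of the KO in MPNST-CM, or replicate 2 of the WT in control medium (adjusted p up to 0.0646), and without the 5 libraries that stood apart (0.105).

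In M2 the interaction was positive for 4 members and negative for 2, against 9.36% and 10.8% of all genes tested, and with all 27 libraries 1 was called, against 1.31% of all genes. Mrps6 had an interaction of -1.65 ± 0.19 (adjusted p = 3.61e-07) and Mrpl18 of -0.55 ± 0.12 (adjusted p = 0.00182), and both calls were kept whichever library was left out. Mrps21 (0.80 ± 0.25, adjusted p = 0.0214), Mrpl22 (0.67 ± 0.21, adjusted p = 0.0206), Mrpl30 (0.47 ± 0.14, adjusted p = 0.0177) and Mrpl17 (0.35 ± 0.13, adjusted p = 0.0487) were positive. Without replicate 2 of M2 WT in control medium or replicate 1 of M2 WT in MPNST-CM, Mrps6 and Mrpl18 alone were called, against 16.8% and 18.4% of all genes. Without replicate 4 of M2 WT in control medium, or replicate 1 of M2 KO in either medium, 1 member was positive and 2 were negative. Without the 5 libraries that stood apart 3 were positive and 3 negative, against 26.5% of all genes, and Mrpl22 was not called (adjusted p = 0.0862).

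The gene Mrps6 overlaps Slc5a3 on the same strand in the RefSeq annotation, and the levels of Slc5a3, a sodium and myo-inositol cotransporter known to respond to osmotic conditions, are therefore given beside it. Slc5a3 stood at 14.1, 11.6 and 14.7 CPM in Mφ WT in control medium and at 63.5, 52.7 and 53.04 CPM in MPNST-CM (log2 2.06, adjusted p = 1.36e-12). In M2 WT it went from 28.2, 25.5 and 27.3 CPM to 153, 139 and 134 CPM (log2 2.33, adjusted p = 1.77e-14). In KO it fell in MPNST-CM, by a log2 of -0.63 in Mφ (adjusted p = 6.89e-05) and of -1.22 in M2 (adjusted p = 7.57e-10). Its interactions were -2.69 in Mφ (adjusted p = 2.77e-12) and -3.55 in M2 (adjusted p = 1.02e-14). In control medium Slc5a3 was higher in KO than in WT, by 1.81 in Mφ (adjusted p = 2.82e-11) and 1.69 in M2 (adjusted p = 4.3e-11). In MPNST-CM it was lower in KO, by -0.88 in Mφ (adjusted p = 4.3e-07) and -1.86 in M2 (adjusted p = 3.84e-13). Mrps6 differed between genotypes in the same direction in each of these comparisons. How reads of the overlap were assigned between the 2 genes is not given in the sources used here, so the part of Slc5a3 in the Mrps6 values was not tested. In all, 23 of the 76 members overlap another gene in RefSeq.

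**Figure D4:**
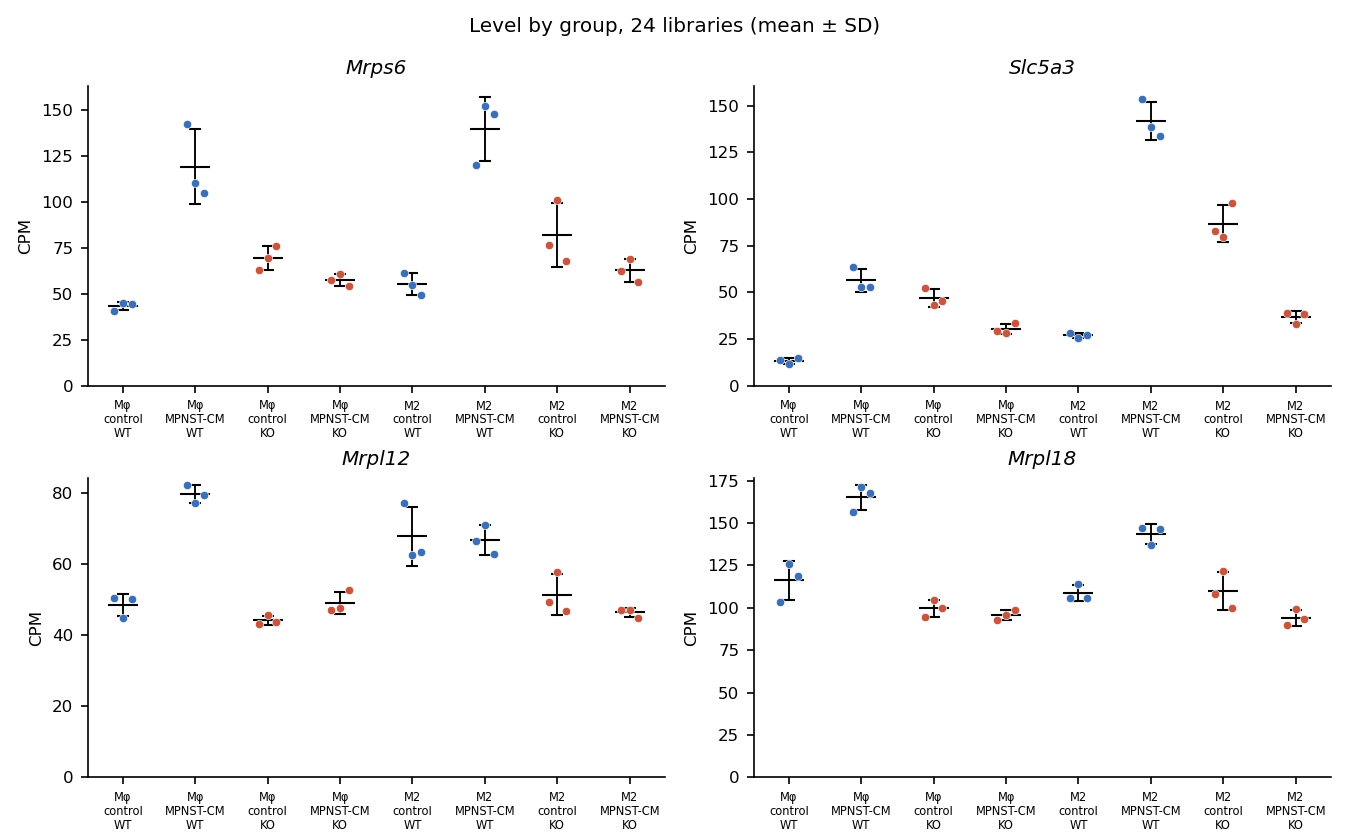
CPM of Mrps6, its overlapping neighbour Slc5a3, Mrpl12 and Mrpl18 (vertical axes, each from 0) in the 24 batch 1 libraries by group, WT in blue and KO in red, with mean and SD. In MPNST-CM each WT library lies above each KO library for all 4 genes, in Mφ and in M2.

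IL-4 polarization was compared within each medium and genotype, where the scale matters: normalization factors were 1.02 to 1.10 in Mφ libraries and 0.897 to 0.995 in M2 libraries. In WT in control medium, 16 members were higher in M2 and 2 lower, against 19.1% of all genes higher and 18.1% lower, but with total counts alone, which moved the median of all genes from -0.0346 to -0.308, 1 was higher and 22 were lower, against 47.2% of all genes called. The median of the members was 0.0966 in the first scale and -0.177 in the other. With all 27 libraries 10 were called, against 26.9% of all genes. Without replicate 1 of the Mφ libraries 10 were higher and 1 lower, and without replicate 2 of the M2 libraries 9 and 1 (31.9% and 31.8% of all genes called). Replicate 1, which stood apart in Mφ, had no counterpart among the M2 libraries of this comparison. Of the 10 cell division genes 9 were lower in M2 (1400 to 1640 CPM summed in Mφ and 647 to 680 CPM in M2), and their part was not tested.

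Mrps36 had the largest change, from 8.23, 7.21 and 7.90 CPM in Mφ to 13.7, 16.97 and 11.6 CPM in M2 (log2 0.85 ± 0.18, adjusted p = 0.000397). Mrpl12 went from 50.5, 44.96 and 50.3 CPM to 77.4, 62.7 and 63.5 CPM (log2 0.47 ± 0.097, adjusted p = 0.000285). Mrpl17 (0.48 ± 0.09, adjusted p = 0.000107), Mrpl50 (0.50 ± 0.13, adjusted p = 0.00327) and Mrps26 (0.45 ± 0.11, adjusted p = 0.00225) were higher without overlap, and these genes stayed above 0 on the scale of total counts, where Mrps36 alone of them was called (log2 0.58, adjusted p = 0.0104). Mrpl36 (0.37 ± 0.12, adjusted p = 0.016) and Mrps7 (0.25 ± 0.099, adjusted p = 0.0472) were called too, but Mrps7 stood at -0.02 on total counts (adjusted p = 0.87). Mrpl36 lost its call without replicate 1 (0.0501) or 3 (0.0635) in Mφ or replicate 3 in M2 (0.096), and Mrps7 in 5 of 6 such fits, all but that without replicate 2 in Mφ (adjusted p up to 0.214). Mrpl28 was lower (-0.41 ± 0.089, adjusted p = 0.000563), as was Mrps9 (-0.30 ± 0.11, adjusted p = 0.0323).

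In WT in MPNST-CM 18 members were lower in M2 than in Mφ and 0 higher, against 13% of all genes lower and 11.9% higher, with medians of -0.183 and -0.052. The order was the reverse of that in control medium on the main scale, but on total counts more members were lower than higher in both media. Total counts alone gave 37 lower and 0 higher, with the median of all genes at -0.172 and 30.5% of them called. The count was smaller elsewhere: 2 higher and 4 lower without the filter (10.7% of all genes called), 0 higher and 2 lower when only these groups were fitted (15.7%), and 1 higher and 8 lower without the 5 libraries that stood apart (24.8%). In the fit of 27 libraries 3 were called, against 8.77% of all genes, and without replicate 2 of the M2 libraries 10 were lower and 0 higher, against 20.5%. In M2 8 of 10 cell division genes were lower (1690 to 1990 CPM summed in Mφ and 1060 to 1170 CPM in M2), and their part was not tested. Mrpl28 stood at 77.9, 68.9 and 76.7 CPM in Mφ and at 53.9, 52.6 and 52.6 CPM in M2 (log2 -0.56 ± 0.086, adjusted p = 1.48e-05). Mrps27 (-0.64 ± 0.20, adjusted p = 0.0165), Mrpl37 (-0.57 ± 0.14, adjusted p = 0.00393), Mrps21 (-0.54 ± 0.17, adjusted p = 0.0239) and Mrpl11 (-0.40 ± 0.11, adjusted p = 0.00926) were lower too. So were Mrpl12 (-0.33 ± 0.095, adjusted p = 0.0116), Mrps18a (-0.38 ± 0.11, adjusted p = 0.0119) and Mrpl33 (-0.25 ± 0.088, adjusted p = 0.0385), whose groups overlapped. Mrpl28 kept its call whichever library was left out. Mrpl33 lost its call in 4 of the 6 such fits (without replicate 2 or 3 of Mφ or 1 or 2 of M2, adjusted p up to 0.207) and Mrps21 in 3 (without replicate 3 of Mφ or 1 or 2 of M2, up to 0.14). Mrps27 lost it in 2 (without replicate 2 of either), Mrpl37 and Mrpl11 in 1 (replicate 1 of Mφ), Mrps18a in 1 (replicate 1 of M2) and Mrpl12 in 1 (replicate 3 of M2). Without the 5 libraries that stood apart Mrps27, Mrpl37, Mrps21, Mrpl11, Mrpl12 and Mrps18a were not called.

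In KO in control medium 3 members were higher in M2 and 6 lower, against 15.6% and 12.9% of all genes, with medians of -0.0231 and -0.0283. Total counts alone gave 0 higher and 27 lower, with the median of all genes at -0.212 and 36.2% of them called. Without the libraries that stood apart 3 were higher and 11 lower, against 33% of all genes. With all 27 libraries 2 were called, against 16.1% of all genes. The named changes were those of Mrpl9 (-0.52 ± 0.17, adjusted p = 0.0232), Mrps9 (-0.33 ± 0.11, adjusted p = 0.0243), Mrps18c (-0.28 ± 0.097, adjusted p = 0.0285), Mrps24 (-0.28 ± 0.095, adjusted p = 0.0301) and Mrps26 (0.32 ± 0.12, adjusted p = 0.0357). Each of these calls was lost in at least 4 of the 6 fits that left out a library, and the count of members called ran from 2 to 6 in those fits. Of the 10 cell division genes 2 were higher and 1 was lower in M2. In KO in MPNST-CM 1 member was called, Mrpl33 (-0.29 ± 0.087, adjusted p = 0.031), against 4.47% of all genes lower and 6.71% higher. Its call was kept only without replicate 1 of the Mφ libraries. At an unadjusted p under 0.05 there were 3 such members. No share of all genes was counted for that threshold, so they are not read as further changes. With all 27 libraries 0 were called, against 3.46% of all genes. Without the libraries that stood apart 2 members were lower, against 16.2% of all genes. Of the 10 cell division genes 6 were higher in M2 (175 to 196 CPM summed in Mφ and 259 to 274 CPM in M2).

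The genes with the widest range of group means were Mrps6 (1.67 on the log2 scale), Mrps28 (1.47) and Mrps27 (1.05), and those with the narrowest were Mrps30 (0.156), Mrpl10 (0.258) and Mrpl34 (0.261). Mrps28, a small-subunit protein, owed its place to single libraries: it stood at 3.20, 32.9 and 33.5 CPM in Mφ WT in MPNST-CM and at 21.7, 3.04 and 20.3 CPM in M2 KO in control medium, whereas the other 18 batch 1 libraries lay between 12.9 and 33.6 CPM. It was called in none of the 12 comparisons. In 3 libraries of the 27 it stood under 4 CPM, the other being the batch 2 library labelled M2 KO in control medium, at 1.80 CPM. Over the 12 comparisons 64 members were called at least once, 16 in 4 or more, and 12 in none. Mrps25 was called most often (8 comparisons), followed by Mrps6 (7) and by Mrpl12, Mrpl28, Mrpl42 and Mrps26 (6 each). The comparisons share libraries, so these counts are not independent. The matching counts over all genes tested were not made, so the counts of calls are not read as a trait of the members.

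**Figure D5:**
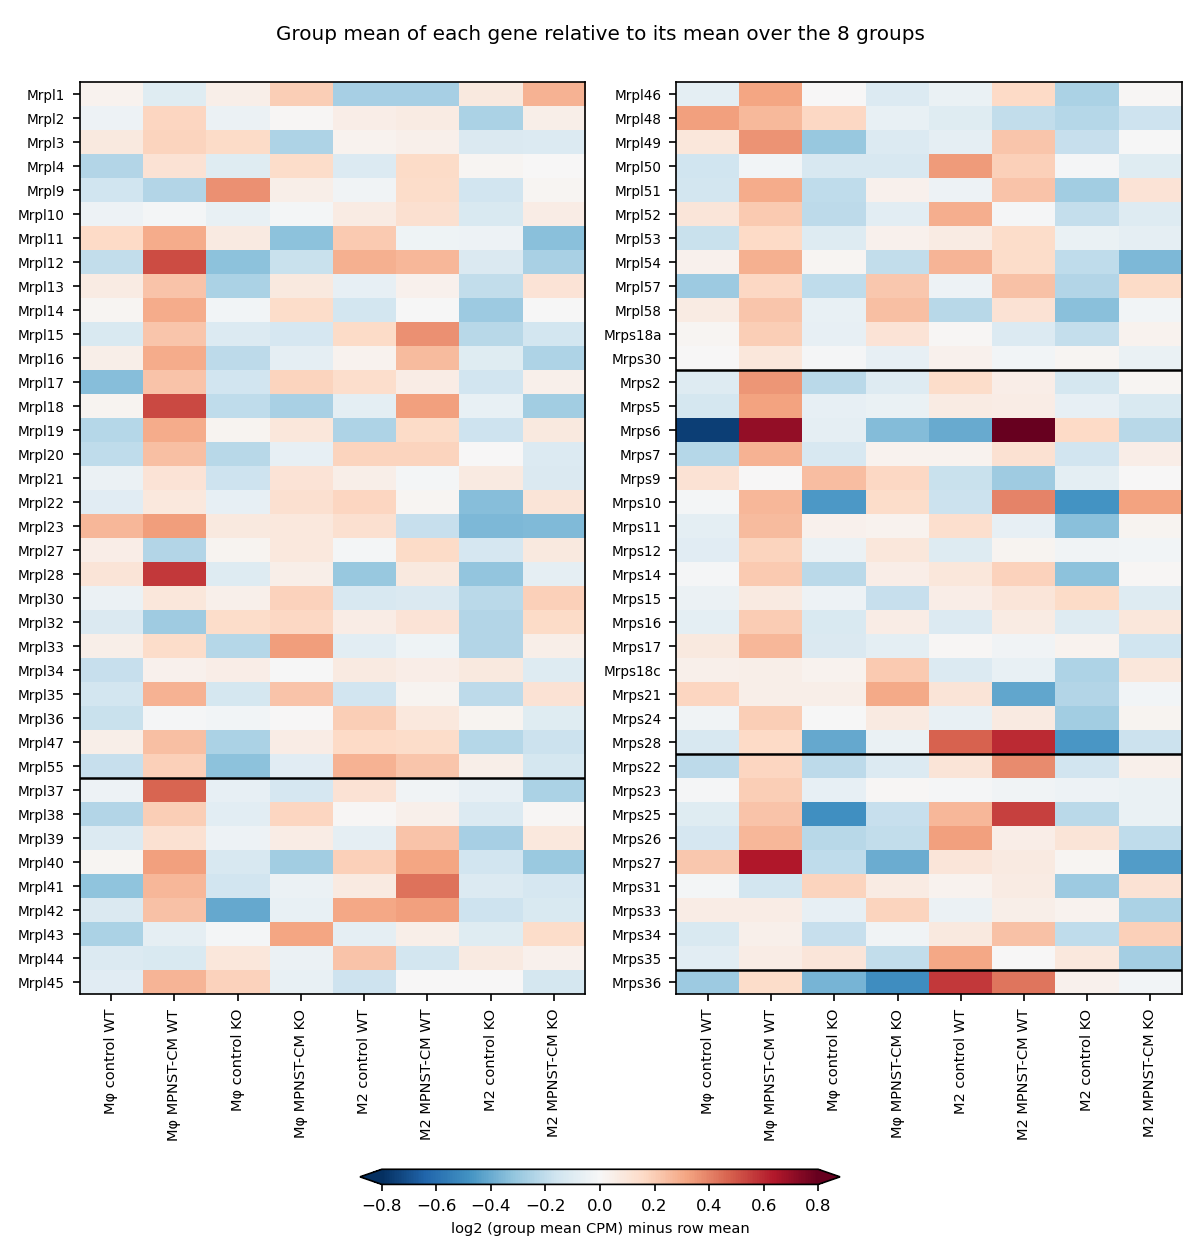
Group mean of each of the 76 genes (rows, ordered by role, with black lines between roles) in the 8 groups (columns), as log2 of the mean CPM minus the gene's mean over the groups, from blue (lower) to red (higher). The column of Mφ WT in MPNST-CM holds the highest value of 37 genes, and that of M2 KO in control medium the lowest of 23. Such counts were not made over all genes tested.

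Other genes of mitochondrial translation were followed in lists of their own. In Mφ WT exposed to MPNST-CM, 2 of the 5 subunits with other names rose, Gadd45gip1 (log2 0.62, adjusted p = 0.000118) and Chchd1 (0.43, adjusted p = 0.00045), with a list median of 0.29. Of 25 tested genes of assembly and rRNA modification 2 rose (median 0.0928), of 15 translation factors 2 rose (median 0.111), and of 20 mitochondrial aminoacyl-tRNA synthetases and amidotransferase subunits 0 of 20 were called (median 0.113). Of all genes tested 11.3% rose and 9.96% fell in that comparison. Lrpprc, which stabilizes mitochondrial mRNAs, rose in that comparison by 0.73 (adjusted p = 0.000537), and so did the coactivators of mitochondrial biogenesis Ppargc1b (0.84, adjusted p = 0.0017) and Pprc1 (0.55, adjusted p = 0.0289). The other 6 of the 8 regulators tested were not called, and the list's median was -0.0226. Ppargc1b fell in MPNST-CM in the other backgrounds, by -0.61 in Mφ KO (adjusted p = 0.0217), -1.49 in M2 WT (adjusted p = 5.82e-08) and -1.94 in M2 KO (adjusted p = 9.01e-10). In Mφ in MPNST-CM these genes were lower in KO than in WT: Lrpprc by -0.69 (adjusted p = 0.00041), Ppargc1b by -1.25 (adjusted p = 9.13e-06) and Pprc1 by -0.49 (adjusted p = 0.0324). Of the same regulators Esrra (0.60, adjusted p = 0.0213) and Yy1 (0.34, adjusted p = 0.0175) were higher in KO. Among the assembly genes Ngrn, Ddx28 and Mrm1 were higher in KO, and Tfb1m, Mtg1, Fastkd2, Mpv17l2 and Trmt2b were lower. In the same comparison 3 of the 5 subunits with other names and 5 of the 20 synthetase genes were lower and 0 of either were higher. Of all genes tested 19.2% were lower and 19.1% higher.

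The 13 protein-coding genes of mitochondrial DNA, whose products the mitochondrial ribosome makes, fell or were not called in MPNST-CM. In Mφ WT exposed to MPNST-CM 0 of 13 rose and 1 fell (median -0.271), in Mφ KO 5 fell (median -0.585), in M2 WT 6 fell (median -0.346) and in M2 KO 8 fell (median -0.948). Of all genes tested 9.96%, 18.1%, 13.3% and 20.2% fell in these comparisons. On total counts alone 2, 5, 2 and 7 fell, and 0 rose in any of the 4. In M2 KO, CYTB fell by a log2 of -0.97 (adjusted p = 1.92e-09), ND1 by -1.04 (adjusted p = 2.86e-09) and COX3 by -1.59 (adjusted p = 6.56e-05), while COX1 was not called (-0.14, adjusted p = 0.295). Between M2 and Mφ in control medium in WT, 9 of 13 were higher (median 0.851), and 8 of 13 were higher on total counts (median 0.577). In the main fit 19.1% of all genes tested were higher. The interaction of genotype and medium was negative for 4 of 13 and positive for 0 of 13 in M2, against 10.8% and 9.36% of all genes. In Mφ it was negative for ND1 (-0.67, adjusted p = 0.000844) and CYTB (-0.48, adjusted p = 0.00828) and positive for COX1 (0.47, adjusted p = 0.0177). Of all genes tested 11.5% had a negative and 8.17% a positive interaction in Mφ.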

How the data were processed

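RNA of 27 macrophage samples was measured by 3′ end sequencing (QuantSeq 3′ FWD, poly(A)-selected, single reads). The deposited table holds raw counts per gene, which the authors made with Trimmomatic, FastQC, HISAT2, SAMtools and featureCounts, per the submitters' processing notes. Versions and the strand setting are not given in the sources used here, and the labels name the build mm39 where the methods name mm10. Since reads come from transcript ends, counts were not scaled by length. A further 5 columns of the table were not used.

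Counts of the 24 batch 1 libraries were fitted in edgeR 4.0.16 (R 4.3.3) with TMM factors, a filter on low counts by group, 1 robust quasi-likelihood fit over the 8 groups and Benjamini-Hochberg adjustment over all genes tested, with a threshold of 0.05. Batch 2 entered alternatives only. Levels are TMM-scaled CPM. DESeq2 1.42.0, other scalings, no filter, a replicate block and leaving out each library were alternatives, and leaving out 5 libraries that stood apart was added after seeing the data. The steps were tested on simulated data. Genes were named if they were among the 5 largest non-overlapping called changes of a comparison, among members of known role, or at the ends of level and range. Lrpprc, Gadd45gip1, Chchd1, Pprc1, Ppargc1b and the mitochondrially encoded genes named, and members named outside that rule, were picked with their values in view. The members and lists were chosen with earlier results of these data known. Counting error limits the precision of members with few counts.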

Additional observations from a re-analysis of the deposited data

Results flagged for a closer look

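The change with MPNST-CM differed between genotypes, by the edgeR interaction test with adjustment over all genes, for 8 members in Mφ and 6 in M2. In Mφ 7 were negative and 1 positive, against 11.5% and 8.17% of all genes tested. In M2 2 were negative and 4 positive, against 10.8% and 9.36%. In each case the share of members (9.21%, 1.32%, 2.63% and 5.26%) was below that of all genes. In Mφ the interaction (KO minus WT, log2) was -1.72 for Mrps6, -0.606 for Mrpl45, -0.561 for Mrpl18, -0.556 for Mrpl12, -0.532 for Mrpl11, -0.505 for Mrpl46 and -0.49 for Mrpl3, and 0.469 for Mrpl33. In M2 it was -1.65 for Mrps6 and -0.547 for Mrpl18, and 0.803 for Mrps21, 0.674 for Mrpl22, 0.472 for Mrpl30 and 0.353 for Mrpl17. The 4 positive calls in M2 were lost without replicate 1 of M2 WT in MPNST-CM.

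The summed level of the members in the batch 2 library labelled M2 KO in MPNST-CM was 3514 CPM on the scale of all 27 libraries, far above the other 3 of its group, the lowest of which was at 3063 CPM. The gap to the nearest library was 0.847 of the range of the group. This was 1 of 12 pairs of measure and group examined, and chance alone gives about 1 such case in 20. By rank correlation over genes, that library was closest to M2 WT in control medium (0.983, against 0.949 with its own group).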

How the results depend on the processing

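Counts of members called are given here in either direction. With total counts alone as the scale they were 16 for MPNST-CM in M2 WT, 31 in M2 KO, 11 for genotype in Mφ in control medium, 37 for M2 against Mφ in WT in MPNST-CM and 27 in KO in control medium, and Mrps7 between M2 and Mφ in WT in control medium reversed to -0.0221. Without a filter they were 5 (MPNST-CM in M2 WT), 13 (M2 KO), 3 (genotype in Mφ in control medium), 6, 3 and 0 (M2 against Mφ in WT in MPNST-CM, KO in control medium and KO in MPNST-CM) and 3 (M2 interaction). With all 27 libraries they were 17, 2 and 1 (MPNST-CM in Mφ WT, M2 WT and M2 KO), 2, 7 and 6 (genotype in Mφ control, M2 control and M2 MPNST-CM), 10, 3, 2 and 0 (M2 against Mφ in WT control, WT MPNST-CM, KO control and KO MPNST-CM) and 2 and 1 (interactions in Mφ and M2). With batch as a covariate as well they were 2 and 2 (MPNST-CM in M2 WT and KO), 2 (genotype in Mφ control), 5, 2 and 0 (M2 against Mφ in WT MPNST-CM, KO control and KO MPNST-CM) and 2 and 1 (interactions). Fitting only the groups compared gave 15 (MPNST-CM in Mφ WT), 2 and 2 (M2 against Mφ in WT MPNST-CM and KO control). The causes were not tested.

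The replicate block gave 10 for genotype in Mφ in control medium and 13 for the interaction in Mφ, and moved no other count by over 1.5 times. For MPNST-CM in M2 WT the block gave 5 higher and 2 lower, against 3 and 6 without it. Deviations of same-numbered libraries had a mean correlation of 0.107 (-0.214 to 0.52), against -0.0451 for other pairs. Not every pair was above 0.1, so the numbers were not taken to pair the libraries. The 5 replicate 1 libraries that stood apart correlated at 0.377 to 0.52. Without them, an alternative chosen after seeing the data, counts were 10 (genotype in Mφ control), 9, 14 and 2 (M2 against Mφ in WT MPNST-CM, KO control and KO MPNST-CM), and for MPNST-CM in M2 WT 12 rose and 1 fell; 66 of the 81 gene results named were kept. DESeq2 and median-of-ratios size factors moved no count by over 1.5 times.

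Leaving out 1 library gave 17 to 24, 6 to 12, 5 to 8 and 12 to 19 for MPNST-CM in Mφ WT, Mφ KO, M2 WT and M2 KO. It gave 1 to 7, 20 to 26, 8 to 13 and 12 to 16 for genotype in Mφ control, Mφ MPNST-CM, M2 control and M2 MPNST-CM. For M2 against Mφ it gave 10 to 15, 10 to 15, 2 to 6 and 0 to 1 in WT control, WT MPNST-CM, KO control and KO MPNST-CM, and for the interactions 7 to 12 in Mφ and 2 to 6 in M2. Of 81 gene results named, 26 kept direction and side of the threshold under every alternative run.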
